A study of Mus musculus with 2 samples.

Results

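Introns with at least 1 unannotated end lying more than 10 bases from every annotated splice site of the same kind and strand were collected from spliced reads of known genes in mouse gastrocnemius. An intron entered when it had 5 or more reads summed over both libraries, which gave 1894 introns in 1043 genes. They were 1894 of 93175 introns with that many reads, beside 90025 annotated introns, 447 new pairings of annotated ends and 809 introns whose unannotated ends lay within 10 bases of an annotated one. Read counts and distances chose these introns, so their number and their distance are descriptions and were given no test.

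The gastrocnemius, a calf muscle made mostly of fast fibres, was taken from female mice of strain B6CASTF1/J at an age of 25 days, and 2 µg of total RNA went into each long-read library. Such mice are the first cross between C57BL/6J and CAST, which descends from wild mice. A single group with biological replicates 1 and 2 is labelled, and the labels number the animals 3 and 4 and name the same donor record for both, so conditions cannot be compared. The reference genome is that of 1 parent of the cross, and which parent a read came from was not analysed here. Fast skeletal muscle markers (Acta1, Ckm, Myh4, Tnnt3 and Mylpf) summed to 165385 CPM (reads scaled to library size) in replicate 1 and 178016 in replicate 2, with every one of the 5 genes read in both. Within that sum Myh4 was at 16360 and 7963 CPM, Mylpf at 13582 and 22368 and Tnnt3 at 1528 and 2763.

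An intron is cut out between a donor site at its 5′ end, usually GT, and an acceptor site at its 3′ end, usually AG behind a stretch rich in pyrimidines. An unannotated site far from known ones can open an exon inside an intron, start a transcript at another first exon, end it at another last exon, lengthen or shorten a known exon, or remove a piece from within one. Skeletal muscle is known for many tissue-specific exons in sarcomere and membrane proteins.

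Sequence could be read only where an annotated transcript or promoter covers the site, so the sites below are biased towards annotated exons. They show 3 short new exons with ordinary borders, and far sites of frequent introns. Such short exons were few: of 360 new internal exons described below, 9 had 27 bases or fewer. Coordinates and sequences are mm10, 5′ to 3′ on the gene's strand, from GENCODE M21 transcripts and RefSeq promoters of GRCm38.p6. In the 3 exons the exon is in capitals and 4 intron bases stand on each side, and in the single sites the capitals mark the intron's 2 edge bases.
Gpcpd1 exon, chr2:132541141-132541169, minus strand: ccagAAAAAATTTGTGCATACACAGgttt
Uso1 exon, chr5:92183478-92183506, plus strand: gcagGGTGATAAGATCGACAGACGGgtat
Uckl1 exon, chr2:181571234-181571261, minus strand: acagAGGAAGCTGCGTTGGGATATgtga
Myh4 first exon donor, chr11:67237824-67237843, plus strand: acccttaaagGTaggtatgt
Mknk2 donor, chr10:80676113-80676132, minus strand: gctgtgctagGTgaggtgac
Qk acceptor, chr17:10216430-10216455, minus strand: ccttgccttttctcttgcAGcaactg
Gpd2 acceptor, chr2:57369443-57369468, plus strand: ctctctctctctctttctAGttagat
Pdlim7 acceptor, chr13:55507644-55507669, minus strand: tggtgcccacagaaccagAGgttctg
Hnrnpk donor, chr13:58394050-58394069, minus strand: tatcaataatGTtaataatg
All of these begin or end with GT or AG. They differ in what stands around the edge: the Qk and Gpd2 acceptors follow long pyrimidine runs, and the Pdlim7 acceptor does not.

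A second set is shown because the same word stands at both edges of an intron, or because an intron passes over a short annotated exon. In the pairs, each window holds 15 bases on either side of the edge and the shared word is in capitals. In the Chmp1a extension, the capitals mark its first 2 bases, where the annotated donor lies.
Synpo2 donor edge, chr3:123111607-123111636, minus strand: GACACAAAGTAACATGTGGCTAaggcaaag
Synpo2 acceptor edge, chr3:123111538-123111567, minus strand: GACACAAAGTAACATGTGGCTAttgtttta
Sfr1 donor edge, chr19:47732690-47732719, plus strand: atgctcctcagcccagtGAGAATCCACCAT
Sfr1 acceptor edge, chr19:47732787-47732816, plus strand: cgttcctcagaccaggGAGAATCCACCATc
Chmp1a extension, chr8:123212641-123212665, minus strand: GTaaggggctgtcatccacttcggg
Chmp1a short exon, chr8:123210216-123210235, minus strand: ATACCCTGTTCCAGTTGAAG
Atp2a1 short exon, chr7:126462500-126462517, minus strand: AGCTCCCTGCTGAGGAAG

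Replicate 1 held 992192 spliced reads of known genes and replicate 2 held 1332339, with a mean of 11.2 introns per read in replicate 1 and 7.75 in replicate 2. Reads with at least 1 of the 1894 introns made up 19.1% of them in replicate 1 and 8.05% in replicate 2. Most came from Atp2a1, the fast-muscle calcium pump of the sarcoplasmic reticulum, which took 78.8% of the intron reads. Without Atp2a1 the shares were 3.08% and 1.91%. The mean number of introns per read without it was 9.22 in replicate 1 and 6.85 in replicate 2, with medians of 7 and 6. Intervals here and throughout are exact Clopper-Pearson intervals and cover counting error only.

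The introns fell into 704 that altered an annotated exon, 627 that bordered a new internal exon, 279 that left a new first exon, 227 that lay within an annotated exon and 57 that led to a new last exon. In 924 the donor alone was far, in 646 the acceptor alone, and in 324 both were. They used 1179 distinct far donors and 898 distinct far acceptors. Of the genes, 963 were protein-coding and held 1720 of the introns. Atp2a1 had the most, with 54, followed by Tnnt3 (fast troponin T) with 32, Myl1 (a fast myosin light chain) with 25 and Ckm (muscle creatine kinase) with 17.

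Most of the introns were rare within their gene. The share is the percentage of a gene's spliced reads that hold the intron, and its median over both libraries was 6.82%. Among 1412 introns whose gene had 20 or more spliced reads in each library, 828 had a share under 5% and 371 under 1%. A share of 50% or more was reached by 86 introns in 60 genes, and 75 of these reached it in each library. Shares in the libraries ranked alike across the 1412 introns (Spearman's rho 0.851), which share genes, reads and depth, and differed by a median of 1.35 percentage points.

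**Figure D1:**
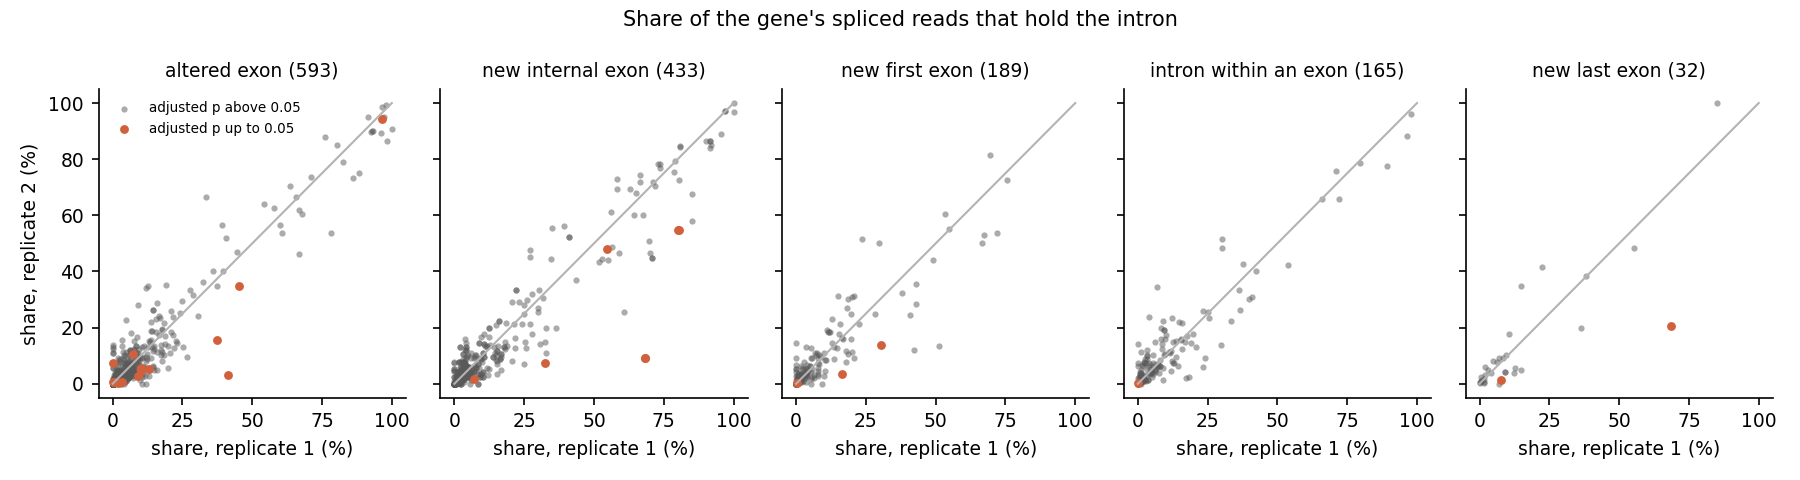
Each point is 1 of 1412 introns, with its share of the gene's spliced reads in replicate 1 on the x axis and in replicate 2 on the y axis (both in percent), split by kind, and the line marks equal shares. Most points lie near the lower left corner, and those past the test between libraries (adjusted p up to 0.05, larger points) lie mostly below the line.

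At the threshold, 344 introns had exactly 5 reads and 604 far introns just outside had 4. Of 22736 far introns with any read, 16374 had 1 read. In distance, 89 lay 11 to 15 bases from the nearest annotated end and 166 just outside lay 6 to 10 bases away. The median distance was 495 bases, and 706 introns had their nearest far end more than 1000 bases away. Both libraries held 1787 of the introns, while 32 were read in replicate 1 alone and 75 in replicate 2 alone.

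New internal exons with both borders far from annotation numbered 360 in 282 genes, and 327 of them overlapped no annotated exon of their gene. Inclusion is the percentage of reads spanning the place that hold the exon. Their median length was 91.5 bases, with a range of 20 to 1034, and 340 were read in both libraries. Of 219 exons with 20 or more spanning reads in each library, 25 had an inclusion of 50% or more in both. Across these 219 the libraries ranked alike (Spearman's rho 0.866).

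The most read were a pair in Mybpc1, the slow-type myosin-binding protein C of the thick filament. Its exon of 39 bases (chr10:88575842-88575880) was held by 2510 of 2660 spanning reads in replicate 1 and 736 of 1190 in replicate 2. Its exon of 36 bases (chr10:88575129-88575164) was held by 2316 of 2662 and 723 of 1191. Inclusion was higher in replicate 1 for both, 94.4% against 61.8% for the first and 87.0% against 60.7% for the second, and the intervals of the libraries did not overlap. Both lengths are multiples of 3.

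The replicates also differed in markers of slow fibres, the cells in which Mybpc1 is best known. Slow markers (Myh7, Tnnt1, Tnni1 and Myl2, all read in both libraries) summed to 605 CPM in replicate 1 and 4745 in replicate 2, and tendon markers (Tnmd, Fmod, Chad and Comp) to 34.6 and 314. Other lists were higher in replicate 1: fibroblast markers at 4031 and 2121 CPM, blood at 990 and 345, adipocyte at 327 and 86.7, Schwann cell at 119 and 75.1 and endothelial at 57.0 and 21.8, while leukocyte markers were at 36.5 and 55.2 with 1 of 3 at 0 in replicate 1. Their part in the Mybpc1 difference was not tested. In these bulk libraries fewer cells of a type and less RNA per cell cannot be told apart.

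Several membrane and signalling genes carried a new exon in most of their reads. Bin1, which bends membranes at the T-tubules, held an exon of 45 bases in 580 of 591 spanning reads in replicate 1 and 655 of 666 in replicate 2, an inclusion of 98.1% and 98.3%. Ywhae, a 14-3-3 adaptor protein, held an exon of 45 bases (chr11:75762698-75762742) in 306 of 378 and 449 of 531 reads, or 81.0% and 84.6%. The intervals of the libraries overlapped for both genes.

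Phkb, the beta subunit of the phosphorylase kinase that starts glycogen breakdown, held an exon of 91 bases (chr8:86025198-86025288) in 219 of 232 reads in replicate 1 and 142 of 153 in replicate 2. Its inclusion was 94.4% (90.6 to 97.0%) and 92.8% (87.5 to 96.4%), and its length is not a multiple of 3. Tmem65, a membrane protein linked to mitochondria, held 81 bases in 175 of 239 and 158 of 198 reads, or 73.2% and 79.8%. Usp25, a deubiquitinase, held neighbouring exons of 114 bases (92.6% of 81 reads and 93.8% of 48) and 96 bases (91.4% of 81 and 91.8% of 49). None of these 4 exons overlapped an annotated exon, and the library intervals overlapped for each.

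Pde4dip, a scaffold protein of the Golgi and centrosome, held an exon of 61 bases in 730 of 1226 spanning reads in replicate 1 and 369 of 568 in replicate 2, or 59.5% and 65.0%. Tnnt3 held an exon of 62 bases in 175 of 1183 and 511 of 2629 reads, or 14.8% and 19.4%. Both genes were mixed, with reads that skip and reads that hold the exon in each library, and for Tnnt3 the library intervals did not overlap. The intron after the Tnnt3 exon was held by 11.7% and 13.4% of the gene's spliced reads. It was not called between libraries (adjusted p = 0.93 by Fisher's exact test). The intron before the Tnnt3 exon passes over 7 short annotated exons, and the intron after it over 2. The part of alignment in the Tnnt3 exon was not tested.

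Fermt2 and Pxn act in cell adhesion to the matrix. Fermt2, the integrin activator kindlin-2, held a 21-base exon in 67 of 90 and 53 of 67 reads (74.4% and 79.1%) and a separate 24-base exon in 20 of 90 and 23 of 67 (22.2% and 34.3%). Pxn, the focal adhesion protein paxillin, held exons of 267 bases (49 of 72 and 19 of 38 reads) and 393 bases (44 of 72 and 20 of 40 reads). Few reads stood behind the Pxn exons, and the library intervals for the first ran from 56.0 to 78.6% and from 33.4 to 66.6%.

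The shortest exons were 20 bases and up. Gpcpd1, a glycerophosphocholine phosphodiesterase that acts in phospholipid turnover, held the 21-base exon printed above in 64 of 83 and 79 of 100 reads (77.1% and 79.0%). Uso1, a tether for vesicles at the Golgi, held its 21-base exon in 89 of 100 and 30 of 38 reads (89.0% and 78.9%). Uckl1, a uridine kinase homologue, held the 20-base exon in 10 of 16 and 25 of 30 reads, with intervals of 35.4 to 84.8% and 65.3 to 94.4%. All 3 overlap exons of other annotated transcripts, which is why their letters could be read, and all 3 have AG before and GT after. The intron before the Uckl1 exon passes over an annotated exon of 17 bases that no read held. The part of alignment in this was not tested.

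Among the other most read exons, Ccpg1, a receptor for autophagy of the endoplasmic reticulum, held 96 bases in 82.5% of 63 and 77.3% of 66 reads. Abcd3, a transporter of the peroxisomal membrane, held 70 bases in 81.1% of 53 and 87.1% of 31. Lsm6, a subunit of an RNA-binding ring, held 148 bases outside its coding span in 48.6% of 37 and 51.5% of 99. At the other end Pkm, the pyruvate kinase of glycolysis, held 123 bases in 29 of 4648 and 36 of 4292 reads, an inclusion of 0.624% and 0.839%. The Pkm exon entered by its reads and not by its share.

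**Figure D2:**
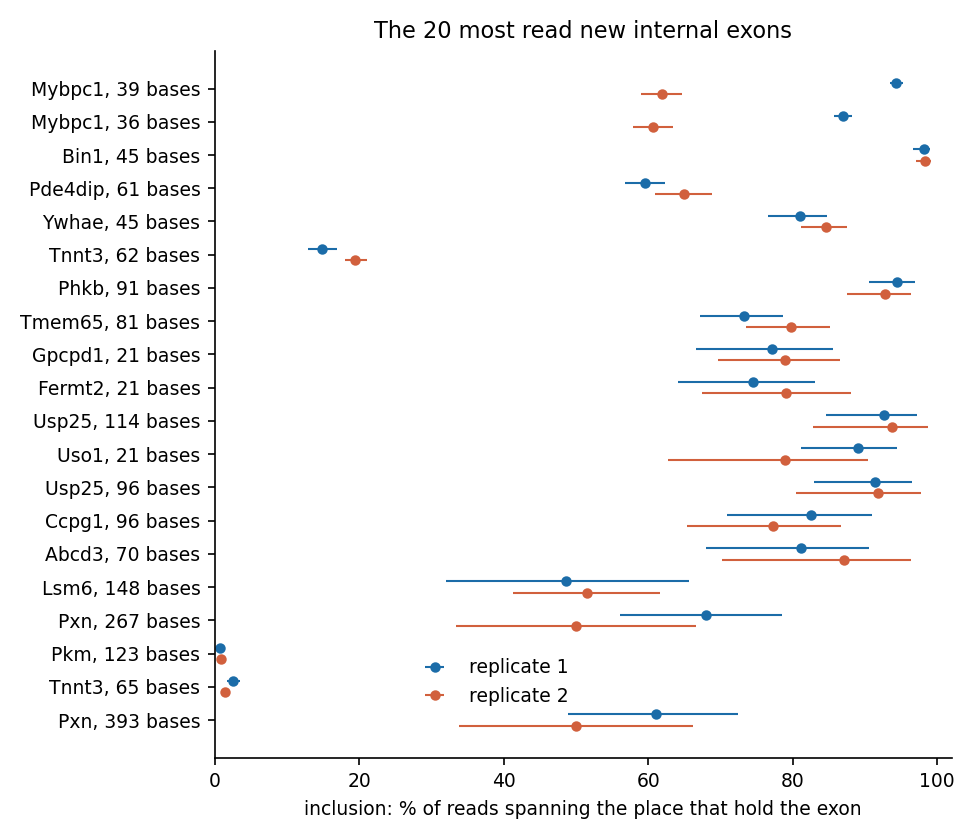
Inclusion in percent of spanning reads (x axis) of the 20 most read new internal exons, with 1 point per library and exact 95% intervals as bars. The Mybpc1 exons are the pair with widely separated libraries, at 94.4% against 61.8% and 87.0% against 60.7%, and the Pkm exon lies near 0.

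Length, which the choice of the introns did not use, went with inclusion. Of 221 new exons inside the coding span of their gene, 50.2% had a length divisible by 3 (43.4 to 57.0%), against 39.8% of 75456 annotated internal exons there. The percentage was 32.5% of 83 exons with inclusion under 5%, 45.3% of 53 from 5 to 20%, 64.7% of 34 from 20 to 50% and 74.5% of 51 at 50% or more (60.4 to 85.7%). Counted by replicate 1 alone, 74.1% of the exons at 50% or more were divisible by 3 and 35.4% of those under 5%. By replicate 2 alone the values were 76.8% and 34.1%. Exons of 1 gene are not independent of each other, so no p is given. Outside a coding span 41.0% of 139 exons had such a length (32.7 to 49.7%).

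**Figure D3:**
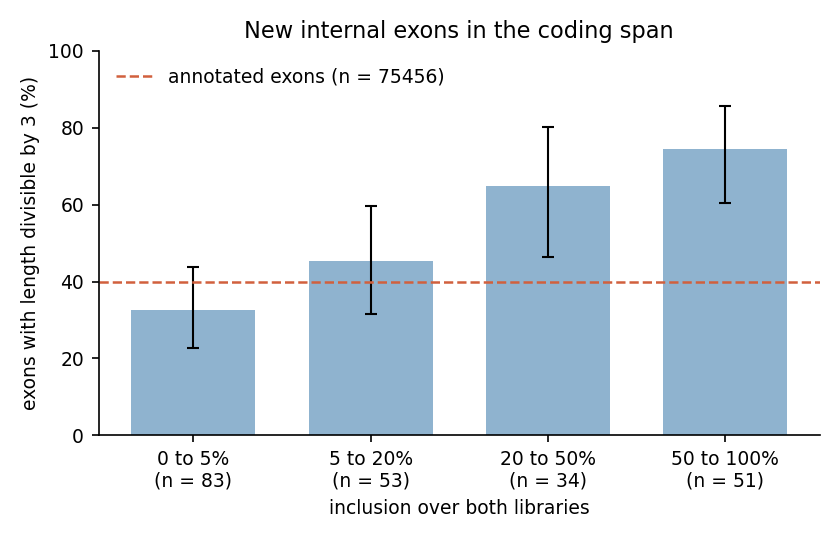
Bars give the percentage of new internal exons in the coding span with a length divisible by 3 (y axis) by inclusion over both libraries (x axis), with exact 95% intervals, and the dashed line marks annotated exons at 39.8%. The bars rise from 32.5% to 74.5%.

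New first exons were defined by 263 far donors in 209 genes. Of these, 98 lay upstream of the annotated gene and 165 within it, 206 were spliced to an annotated acceptor and 244 were read in both libraries. Their median length was 153 bases. For 15 (5.70%) the read start lay within 100 bases of a start listed by RefSeq. Of 175 first exons in genes with 20 or more spliced reads in each library, 9 held 50% or more of the reads.

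The most read was in Myh4, the myosin heavy chain of the fastest fibres. A first exon of 326 bases (chr11:67237508-67237833), beginning 521 bases upstream of the annotated gene, was held by 5329 of 17448 spliced reads in replicate 1 and 1679 of 11997 in replicate 2, or 30.5% and 14.0%. Reads spanning the intron behind it were 5476 and 1728, and 97.3% and 97.2% of these held it. Set against spanning reads, the Myh4 exon did not pass the test between libraries (adjusted p = 1 by Fisher's exact test). The annotated gene start lies inside this intron, so reads that begin there cannot span it. The test against spanning reads therefore cannot compare the use of this first exon between libraries. A second Myh4 first exon of 96 bases, 21 bases from the RefSeq start, was held by 50 and 13 reads.

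Reads of 3 regulatory and transport genes also used a new first exon most of the time. Slc41a3, a magnesium transporter, began with a 121-base exon 2724 bases upstream in 68 of 90 and 56 of 77 reads (75.6% and 72.7%). Sbk1, a kinase with an SH3-binding domain, began with 875 bases 24381 bases upstream in 43 of 62 and 22 of 27 reads (69.4% and 81.5%). Lbx1, a homeobox factor of migrating limb muscle precursors, began with 209 bases 1027 bases upstream in 29 of 43 and 27 of 51 (67.4% and 52.9%). The library intervals overlapped for each of the 3.

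The start was also upstream in Pik3ca, the catalytic subunit of a PI3 kinase, with 22 of 27 and 12 of 15 reads (81.5% and 80.0%) and a RefSeq start 20 bases away. Nr4a1, a nuclear receptor, used a first exon within the gene in 29 of 53 and 22 of 40 reads (54.7% and 55.0%). Lmod3, which nucleates actin filaments, used an upstream one in 32 of 143 and 42 of 198 (22.4% and 21.2%). Tfeb, a regulator of lysosomal genes, used an internal one in 38 of 100 and 30 of 93 (38.0% and 32.3%). The library intervals overlapped for all 4 genes.

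Park7, a redox-sensitive chaperone, began inside the gene in 86 of 520 and 251 of 1532 reads, 16.5% and 16.4%. Tsc22d3, a target of glucocorticoids, used a 44-base first exon in 45 of 348 and 52 of 225 reads (12.9% and 23.1%), with intervals that did not overlap but no call after adjustment over all introns. Myl1 and Ak1, the muscle adenylate kinase, used theirs rarely: 120 of 11785 and 369 of 31191 reads for Myl1 (1.02% and 1.18%), and 39 of 5601 and 54 of 7708 for Ak1 (0.696% and 0.701%).

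Gm11716, a gene with no named protein, began 2131 bases upstream, 5 bases from its RefSeq start, in 23 of 43 and 89 of 147 reads (53.5% and 60.5%). All 7 and 71 spliced reads assigned to Snord104, a small nucleolar RNA gene, began at a 68-base exon 120 bases upstream, 42 bases from the RefSeq start of Gm36220. These reads are spliced and the small RNA itself is not, so they describe a longer transcript over that place.

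New last exons were fewer: 54 in 53 genes, of which 26 lay past the annotated gene end and 28 within it. Their median length was 522 bases and 36 were joined to an annotated donor. Of 30 in genes with 20 or more spliced reads in each library, 2 held 50% or more of the reads. The most read was in Ubxn2a, an adaptor of the ATPase p97, where a 1088-base exon 2480 bases past the gene ended 62 of 163 and 42 of 109 reads (38.0% and 38.5%).

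Noncoding Gm29773 ended 31 of 47 and 45 of 68 reads (66.0% and 66.2%) in a 1364-base exon 2494 bases past its annotation, and Gm8424 ended 23 of 27 and 30 of 30 (85.2% and 100%) 5797 bases past it. Clec16a, which acts in mitophagy, ended 10 of 45 and 10 of 24 reads in an exon within the gene. Pde4dip ended 55 of 1302 and 23 of 604 (4.22% and 3.81%) that way. Trdn, the junctional protein triadin, did so in 14 of 821 and 17 of 2812 (1.71% and 0.605%). Many reads of these 2 genes did not span the intron before the exon. It was spanned by 833 and 223 reads in Pde4dip and by 199 and 220 in Trdn. Dapk2, a calmodulin-regulated kinase, stood apart: 22 of 32 reads ended in a 1659-base exon in replicate 1 and 8 of 39 in replicate 2 (68.8% and 20.5%). Klhl40, a stabiliser of thin filament proteins, had 33 of 434 and 3 of 205 reads (7.60% and 1.46%).

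**Figure D4:**
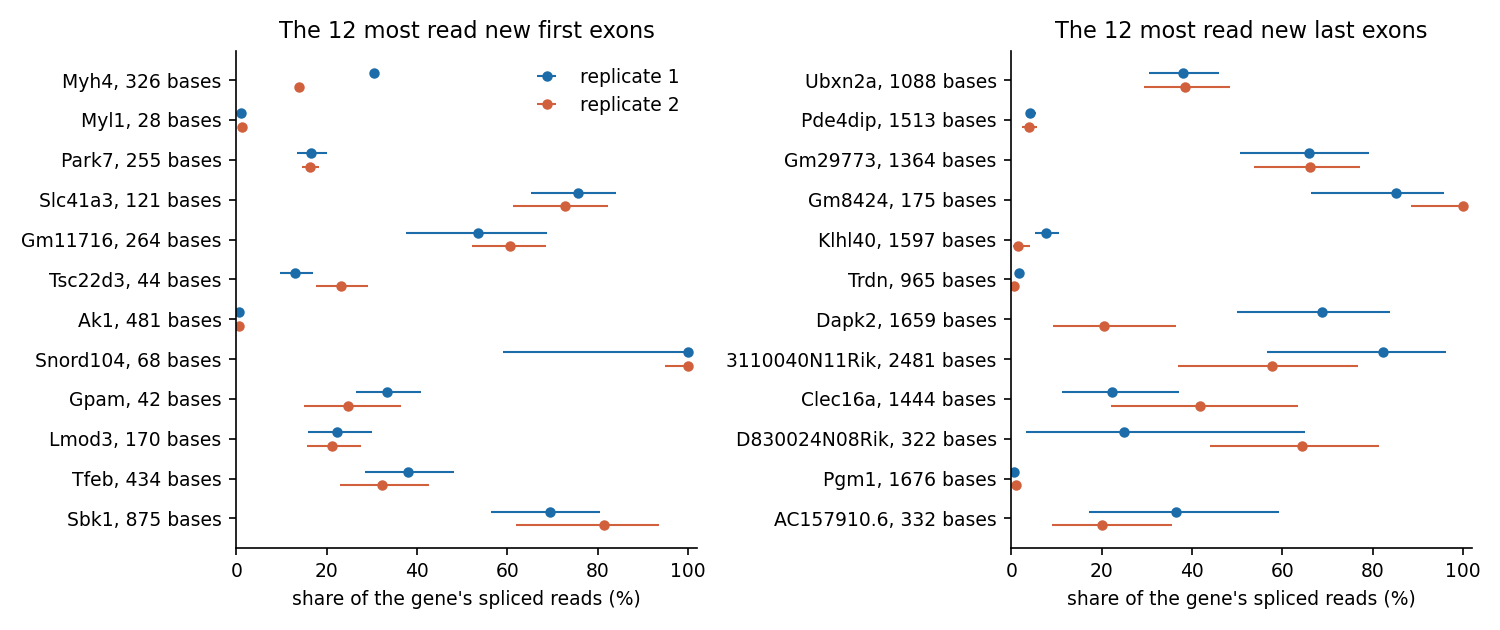
Share of the gene's spliced reads in percent (x axis) held by the 12 most read new first exons (left) and last exons (right), 1 point per library with exact 95% intervals. Myh4 on the left and Dapk2 on the right show the libraries apart, at 30.5% against 14.0% and 68.8% against 20.5%.

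Altered exons were the most frequent kind at the distance of 10 bases, with 310 lengthened and 394 shortened exons. An exon counted as shortened when its far end lay inside an annotated exon of any transcript of the gene, and otherwise as lengthened. The distance to the nearest annotated site has no direction, so for shortened exons it need not be the number of bases lost. Past 50 bases the order turned, with 373 introns of altered and 626 of new internal exons. In the most read one, exon 1 of Atp2a1 was lengthened by 26 bases and its intron (chr7:126462188-126462778) was held by 162855 of 168906 reads in replicate 1 and 82824 of 87765 in replicate 2, or 96.4% and 94.4%. The intron passes over an annotated exon of 18 bases, printed above. That exon was held exactly by 1 read in replicate 1 and 0 in replicate 2. The deposited class label of the reads with this intron was also different: 98.6% carried the label for a new splice site in replicate 1, and 97.9% the label for known sites newly combined in replicate 2, although the intron is the same.

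Passing over a short annotated exon, of 30 bases or fewer, was frequent where the lengthened exon dominated. It was seen in 23 of 36 lengthened exons with a share of 50% or more (63.9%, 46.2 to 79.2%) and in 47 of 274 with a lower share (17.2%, 12.9 to 22.1%). Among shortened exons it was 21 of 394 (5.33%), and among annotated introns 357 of 90025 (0.397%). Over all 1894 introns it was 121 (6.39%). In the 23, which lie in 22 genes, the bases added and the length of the exon passed over were close, within 10 bases of each other in 21, with medians of 22 and 20 bases. In 19 of the 23 a single short exon was passed over and 18 of these were within 10 bases. In the other 4 the exon nearest in length was taken, and extensions under 11 bases were left out by the choice of the introns. The short exon itself was held by no read in 16 of the 23. No source used here names the aligner, and the part of alignment in this pattern was not tested.

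Hacd1, an enzyme of very long fatty acid synthesis needed for myoblast fusion, gained 27 bases and passed over an exon of 19 in 227 of 232 and 465 of 468 reads (97.8% and 99.4%). Pdlim5, a Z-disc adaptor, gained 28 and passed over 4 short exons, the nearest in length of 26 bases, in 263 of 282 and 320 of 356 (93.3% and 89.9%). Car14, a carbonic anhydrase of the muscle membranes, gained 22 and passed over 21 in 179 of 186 and 204 of 228 (96.2% and 89.5%). In these 3 genes nearly all reads had the longer exon and almost none the short one, with 0, 0 and 1 reads of it.

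Suds3, a subunit of the Sin3 corepressor, gained 16 bases against an exon of 20 in 103 of 106 and 95 of 100 reads (97.2% and 95.0%). Chmp1a, a subunit of the ESCRT-III membrane scission complex, gained the 25 bases printed above against an exon of 20, in 42 and 38 reads (82.4% and 79.2%), with 2 and 6 reads of the short exon. Capn1, a calcium-activated protease, gained 11 against an exon of 12 in 53 and 32 reads (98.1% and 86.5%). Cct6a, a chaperonin subunit, differed more in size, gaining 61 bases against an exon of 13 in 135 of 146 and 137 of 153 reads (92.5% and 89.5%). Col6a1, a collagen VI chain, was the other gene past 10 bases, with 37 added against an exon of 21, the nearer of 2, in 51 and 32 reads (68.0% and 60.4%).

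Some introns of shortened exons and some introns within exons also passed over a short annotated exon. Pdlim7, another Z-disc adaptor, was counted as shortened by the rule above but gained 25 bases against the nearest annotated acceptor. Its intron passed over an exon of 17 in 377 of 406 and 744 of 825 reads (92.9% and 90.2%). That exon had 2 and 5 reads. Capn2, a sister protease of Capn1, used a donor 17 bases from the nearest annotated one. It passed over an exon of 12 in 83 of 86 and 70 of 71 (96.5% and 98.6%). Hnrnpk, an RNA-binding regulator, had an intron whose far end lay 16 bases from an annotated site and that passed over an exon of 16 in 192 of 196 and 224 of 233 (98.0% and 96.1%). Its printed donor has GT with no G before it and no G at the fifth intron base.

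**Figure D5:**
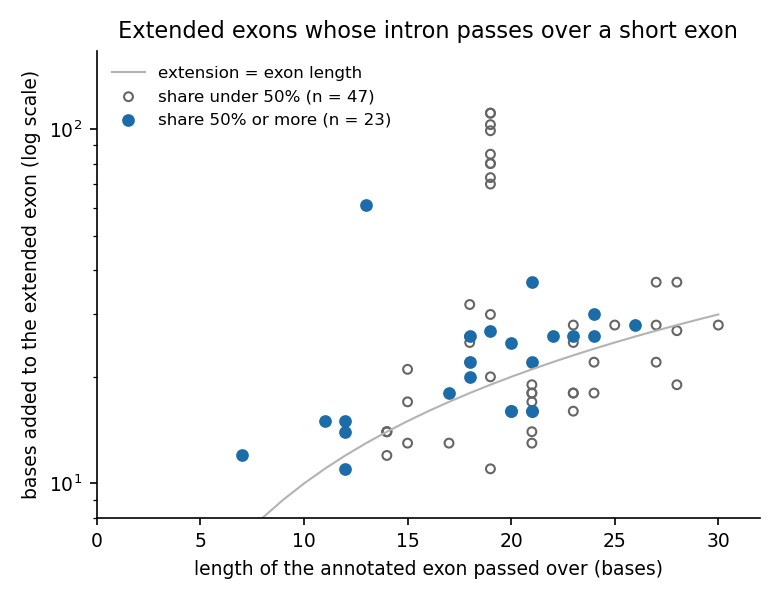
Each point is 1 of 70 lengthened exons whose intron passes over a short annotated exon, with the length of that exon in bases (x axis) and the bases added (y axis, log scale). Filled points have a share of 50% or more (23), open points less (47), and 21 of the 23 filled points lie within 10 bases of the line of equal lengths.

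Other altered exons passed over no short exon. Mknk2 is a kinase that phosphorylates the cap-binding protein eIF4E. Its donor 42 bases from the nearest annotated one was used in 430 of 709 and 212 of 396 reads (60.6% and 53.5%). Coro6, an actin-binding coronin, used an acceptor 59 bases away in 192 of 302 and 239 of 340 (63.6% and 70.3%). Qk, an RNA-binding splicing regulator of muscle, used an acceptor 24 bases away in 115 of 143 and 97 of 114 (80.4% and 85.1%). Their printed or readable far sites had GT or AG, and the library intervals overlapped for all 3 genes.

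Pde4dip had several altered exons. The most read used an acceptor 56 bases from the nearest annotated one in 396 of 1302 and 146 of 604 reads (30.4% and 24.2%). Tnnt3 had lengthened exons joined over a stretch of 9 short annotated exons. Its 3 most read introns there were held by 263 and 541, 216 and 503, and 112 and 410 reads of 1515 and 3866. Myl1 lengthened an exon by 37 bases in 156 of 11785 and 475 of 31191 reads (1.32% and 1.52%). The Myl1 intron passes over 2 short exons, and 10617 and 27132 reads held at least 1 of them. That of 28 bases was held by 3130 and 6676 reads and that of 25 bases by 7763 and 21211. In Myl1 the lengthened form was thus the minor one.

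Of the 227 introns inside an annotated exon, 58 lay in exons of transcripts annotated as retaining an intron and 169 in other exons. Their median length was 298 bases, and 49 were at most 100. Gpd2, the mitochondrial glycerol phosphate dehydrogenase, lost 1989 bases in 191 of 240 and 158 of 201 reads (79.6% and 78.6%), with both far sites following the GT and AG rule. Gpt2, the mitochondrial alanine aminotransferase, lost 128 in 66 of 263 and 49 of 191 (25.1% and 25.7%). Rps24, a protein of the small ribosomal subunit, held its intron in 82 of 85 and 174 of 197 reads (96.5% and 88.3%), and it passes over an annotated exon of 20 bases.

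Some of these introns had the same word at both edges. A word of 10 or more bases was shared by the 30-base windows in 37 of 223 readable introns within exons (16.6%, 12.0 to 22.1%), in 0 of 87 altered exons (up to 4.15%) and in 9 of 8873 readable annotated introns (0.101%). Where only transcripts retaining an intron covered the place it was 1 of 57, and elsewhere 36 of 166 (21.7%). By edge bases it was 29 of 310 GT-AG introns (9.35%) and 9 of 29 others (31.0%). Removing the piece between direct repeats leaves 1 copy of the repeat. Reverse transcription, amplification and alignment were not recorded here, and their part in this pattern was not tested.

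Synpo2, a Z-disc actin-binding protein, lost 69 bases between copies of a 22-base word in 201 of 305 and 150 of 228 reads (65.9% and 65.8%). The intron reads GT at the donor and AT at the acceptor. Casq1, the calcium store protein of the sarcoplasmic reticulum, lost 181 bases between copies of a 10-base word in 157 of 8292 and 203 of 9284 (1.89% and 2.19%). Sfr1, a DNA repair factor, lost 97 between copies of a 13-base word in 46 of 112 and 62 of 200 (41.1% and 31.0%). Such introns were thus not confined to low shares: among readable introns with a share of 20% or more, 18 of 94 had the repeat, and 20 of 245 with less.

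Splice site bases could be read at both ends of 356 introns, of which 225 lay within exons. GT-AG stood at 322 (90.4%, 86.9 to 93.3%) and GC-AG at 22 (6.18%), against 98.6% and 1.11% of 9179 readable annotated introns. GT-AT stood at 9, AT-AC at 1, and 2 had other bases. Of 449 readable far donors 91.3% were GT and 8.02% GC, and of 411 readable far acceptors 97.3% were AG. The readable GC donors included that of Pxn.

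Around the edge the far sites were further from the usual letters. The last exon base was G at 69.2% of 409 readable far GT donors (64.5 to 73.6%), and at 79.6% of 16828 annotated ones. The fifth intron base was G at 56.0% (51.0 to 60.9%) and at 77.9%. The 16 bases before the acceptor's AG were 68.75% pyrimidine at the median of 362 far acceptors, against 75% for 14353 annotated ones. For introns with a share of 20% or more the median was 75%, and for those under 1% it was 62.5%. The donor letters did not go the same way: the last exon base was G at 66.7% and 71.0%, and the fifth intron base at 52.3% and 53.6%.

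Libraries were compared by the share of each intron, with a two-sided Fisher's exact test and Benjamini-Hochberg adjustment over all 93175 introns. This compares 2 libraries, not conditions. Of the 1894 introns 27 in 19 genes passed an adjusted p of 0.05, or 1.43%, where the percentage called over all introns was 2.42%. Of these 22 (1.16%) were lower in replicate 2, where 2.34% of all introns were, and 5 (0.264%) were higher, where 0.0751% of all were.

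Fewer introns per read in replicate 2, given above, stood beside these calls, and their part was not tested for each. When each intron was set against the reads spanning it, 9 of the 27 remained, 6 lower and 3 higher, or 0.475%, where 0.0998% of all introns (93) passed. For Pcnt, a centrosome scaffold, the share was 68.2% and 9.09%, but all 15 and all 2 spanning reads held the intron. The Myh4 first exon was at 97.3% and 97.2% of spanning reads. Reads from the annotated Myh4 start cannot span that intron, so these values cannot show how often the first exon was used. A Trdn intron of an altered exon (chr10:33233927-33257050) went from 13.2% and 5.19% to 28.9% and 29.5%. Other calls were lost while the libraries stayed apart: Dapk2 was at 88.0% of 25 and 38.1% of 21 spanning reads, Klhl40 at 100% of 33 and 50% of 6, and D2hgdh, an enzyme of hydroxyglutarate breakdown, at 41.4% and 3.45% of 29 each. Sema4d, a semaphorin, held the intron in 49 of 127 and 15 of 94.

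Of the 9, 4 were in Mybpc1. Its introns on either side of the 36-base exon were held by 2326 and 2316 of 2890 reads in replicate 1 and 724 and 723 of 1322 in replicate 2, or 80.5% against 54.8% and 80.1% against 54.7% (adjusted p = 1.3e-61 and 4.6e-60 in Fisher's exact test). Another Mybpc1 intron (chr10:88575881-88585659) fell from 32.3% to 7.56% (adjusted p = 1.3e-74), and the intron skipping the 36-base exon fell from 7.02% to 1.59% (adjusted p = 3.3e-13). All 4 were higher in the library with the lower slow-marker sum.

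The other 5 were in Tnnt3, Atp2a1, Actn3 and Srl. In Tnnt3 an intron (chr7:142501659-142510590) fell from 10.3% to 5.64% and another (chr7:142501664-142510583) rose from 7.39% to 10.6%, with Fisher's exact adjusted p = 7.6e-07 and 0.015. The main Atp2a1 intron fell from 96.4% to 94.4% of all reads and lay at 99.2% and 99.0% of spanning reads. Both of these Tnnt3 introns pass over 9 short annotated exons, and the Atp2a1 intron passes over 1. The part of alignment in these calls was not tested. In Actn3, the fast alpha-actinin of the Z-disc, a lengthened exon rose from 15 reads (0.159%) to 45 (0.574%). In Srl, the luminal calcium-binding protein sarcalumenin, an intron was held by 0 reads in replicate 1 and 9 in replicate 2 (0.453%). Replicate 1 had 4358 Srl reads, so its interval reaches 0.0846%.

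Genes of muscle contraction held such introns often, and so did deeply read genes in general. Of genes with 20 or more spliced reads, 903 of 5968 (15.1%) had at least 1. It was 32 of 55 sarcomere genes (58.2%), 16 of 33 genes of calcium handling and excitation (48.5%), 15 of 25 of glycolysis and glycogen (60.0%), 27 of 92 of the respiratory chain (29.3%) and 5 of 14 of the dystrophin complex and costamere (35.7%). Ribosomal protein genes had 6 of 85 (7.06%), a list taken by symbol that also holds the kinase Rps6ka2, and splicing regulators had 8 of 27 (29.6%). By depth alone the percentage was 9.78% of genes with 20 to 100 spliced reads, 21.8% with 100 to 1000 and 47.8% with 1000 or more. The median gene had 1160 such reads in the sarcomere list, 501 in calcium handling, 723 in glycolysis, 1384 in the respiratory chain, 107 in the dystrophin list, 338 in ribosomal proteins and 93 in splicing regulators. Depth was not matched between the lists and genes at large.

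Introns with a share of 20% or more were in fewer of these genes. They were in 7 sarcomere genes, among them Lmod3, Mybpc1, Myh4, Pdlim5, Pdlim7 and Synpo2. Among calcium and excitation genes they were in Atp2a1, Bin1, Jph1 (which ties the T-tubule to the reticulum) and Scn4a (the muscle sodium channel). Phkb was the 1 glycogen gene and Ndufaf5 the 1 gene of the respiratory chain list. Among splicing regulators they were in Hnrnpk, Qk and Rbfox1, the last with a 53-base new exon in 17 of 23 and 12 of 18 spanning reads (73.9% and 66.7%).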

How the data were processed

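Long-read RNA libraries of 2 mice were analysed. Per the file headers and the notes deposited with the tables, the authors' values are unnormalized counts of reads per TALON transcript model on mm10 with GENCODE M21. No source used here names the platform, aligner, versions or read filters. Replicate 1 held 1069771 mouse reads and replicate 2 held 1557594, after leaving out 30993 and 31067 spike-in reads.

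Models of known genes with 2 or more exons were turned into introns, and each intron's counts were summed per library. Members and gene lists were chosen with earlier results of these data known. Named introns were the 12 most read new internal, first and last exons (1 per gene), the 8 most read of the other kinds, the 5 highest shares, the 5 largest called differences each way and list members; others were named after their values were seen. Intron shares were compared by Fisher's exact test (scipy 1.17.1, 20 reads per gene for summaries), and p-values measure counting error between 2 libraries. The step was tested on simulated data. Alternatives changed read and distance minimums, denominators, model classes and scaling (TMM from edgeR 4.0.16, size factors from DESeq2 1.42.0, R 4.3.3) and left out each replicate. Other steps used Python 3.11.15, pandas 2.3.3 and numpy 2.4.6. Sequence was read from M21 transcripts and RefSeq promoters laid on mm10, which gave 0 conflicting bases. No genome sequence was used here. Results for a few genes are not reported here.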

Additional observations from a re-analysis of the deposited data

How the results depend on the processing

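The number of introns followed the read minimum: 3593 at 3 reads, 831 at 10 and 406 at 20, and 888 to 1035 from 1 library. At 10 reads there were 253 introns of new internal exons, 138 of first exons, 22 of last exons, 316 of altered exons and 102 within exons. Without a replicate these were 299 to 322, 143 to 170, 20 to 32, 333 to 383 and 93 to 128. Past 50 bases 373 introns of altered exons were left beside 626 of new internal exons. The median share was 10% of spanning reads, 11.6% at 10 reads and 10.3 to 12.8% from 1 library. Reads with such an intron in replicates 1 and 2 fell to 2.08% and 1.30% past 50 bases, 3.08% and 1.91% without Atp2a1, and 2.24% and 1.33% without introns over a short annotated exon, an alternative added after seeing the data. Calls between libraries were 9 against spanning reads (0.475%, with 0.0998% of all introns) and 15 at an adjusted p of 0.01 (0.792%, with 1.64%). Against library totals by an exact binomial test they were 230 (12.1%, with 29.1%), 171 scaled by TMM (9.03%, with 22.6%) and 174 by size factors (9.19%, with 21.8%). New exons divisible by 3 were 57.1% at 10 reads and 52.7 to 57.7% from 1 library. The cause of these shifts was not tested beyond the fewer reads or introns each setting leaves. The other 42 values moved by less than their limits, those added after seeing the data included (repeated words left out, the most read exon per gene). No call between libraries exists without a replicate. No paired analysis was possible because there is 1 group.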
